A study of Mus musculus with 11 samples.

Results

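Fetal livers that lacked both caspase-8 and MLKL were compared with wild-type livers by RNA sequencing at E15.5 (days of embryonic development), over all genes. The comparison took every liver labelled with either genotype, 6 of the 11 livers of the series: 3 Casp8-/- Mlkl-/- livers (dKO below) and 3 WT livers, all from untreated embryos. The other 5 livers, 2 Tnfr1-/- and 3 Casp8-/- Tnfr1-/-, entered the statistical model only to estimate the spread. The mice were kept on a C57BL/6N background, the alleles are germline deletions present in every cell of the embryo, and the Mlkl-/- line had been made elsewhere and backcrossed. No Casp8-/- or Mlkl-/- single mutant was sequenced, so what the loss of either gene does alone cannot be told apart from what both do together. It is not stated whether livers of a genotype came from separate litters, so the p-values measure the spread between these livers. Levels are given as CPM, counts scaled to the same library size in every liver with edgeR's TMM factors, and fold changes as log2 of dKO over WT.

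Caspase-8 is a protease that starts apoptosis below death receptors and also restrains necroptosis, an inflammatory form of cell death in which the kinase RIPK3 activates the pore-forming protein MLKL. Embryos without caspase-8 die in mid-gestation by necroptosis, and loss of MLKL lets them develop further. The liver at this age is the main site of blood formation, and erythroid cells at all stages lie among hepatocytes, macrophages, megakaryocytes and sinusoidal endothelium.

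The deposited tables held between 23129212 and 31870200 counts per liver in these 6 livers. The 3 WT livers and dKO replicates 2 and 3 were alike, with Pearson's r of log2 CPM across genes of 0.984 to 0.990 between any pair, where genes are not independent replicates. The liver of dKO replicate 1 stood apart, with r of 0.949 to 0.959 to each of these 5, and its 10 most abundant genes took 24.0% of its counts against 11.9 to 15.2% in the others. It was the highest of the 6 livers in 35.3% of the 17243 genes tested and the lowest in 34.0%. The comparison was defined beforehand to be given with and without this liver, because of its albumin and other liver genes. Both are given for all genes together and for most lists. For some single genes only a fit of 5 livers without it is given. In the larger models edgeR called 1 gene, Rnf213, with all livers and 0 genes without dKO replicate 1. Among the livers used only for the spread, Casp8-/- Tnfr1-/- replicate 3 stood apart as well, with 22.5% of its counts in 10 genes. Markers of striated muscle, which a dissection could carry along, summed to 31.9 to 38.2 CPM in the 3 dKO livers and 28.0 to 38.7 in WT. Markers of gut and stomach summed to 139 CPM in dKO replicate 1 and 21.02 to 30.0 in the other 5 livers, and those of pancreas to 43.5 CPM in that liver and 7.22 to 26.4 in the others. The sums are over members tested, 8 of 15 for gut and stomach, of which 5 were highest in dKO replicate 1. Of the 7 not tested, Cdx1, Cdx2, Tff2, Gkn1, Gkn2 and Sox2 had 0 counts in that liver. The last, Cdh17, had 11 counts there and 2 to 8 in the others. The part these tissues have in the results was not tested. The labelled tissue carried its defining markers in all 6 livers: Alb was at 23832 CPM or more and Gata1, an erythroid factor, at 146 CPM or more.

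The targeted genes matched the labels. Casp8 (chr1:58795374-58847503, plus strand) measured 33.6, 30.5 and 27.7 CPM in WT replicates 1 to 3 and 7.82, 9.21 and 10.2 CPM in the dKO livers in the same order of number. Mlkl (chr8:111311797-111338177, minus strand) measured 4.45, 4.23 and 4.26 CPM in WT and 0.729, 1.22 and 1.03 CPM in dKO livers. For neither gene did the groups overlap, and reads remained on both in every dKO liver; the counts are over the whole gene, and which exons hold these reads was not tested. With all 11 livers in the model the log2 fold changes were -1.75 (standard error 0.24) for Casp8 and -2.11 (0.29) for Mlkl, and they did not pass the test (edgeR's quasi-likelihood test, Benjamini-Hochberg adjusted p = 0.0677 for both). With 5 livers, the 3 WT and dKO replicates 2 and 3, both passed, with log2 fold changes of -1.66 and -1.92 (edgeR adjusted p = 1.70e-04 and 0.00265).

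The number of genes called at an adjusted p under 0.05 depended on which livers set the spread. With all 11 livers in the edgeR model, 1 of 17243 genes was higher in dKO livers (0.00580%) and 0 were lower (0%); at an unadjusted p under 0.05 there were 709 higher (4.11%) and 262 lower (1.52%). Without dKO replicate 1 and with the other 10 livers, 0 of 17081 genes were higher (0%) and 0 lower (0%) by edgeR, with 370 (2.17%) and 281 (1.65%) at an unadjusted p under 0.05. DESeq2's Wald test gave 79 higher and 11 lower with all livers and 53 and 22 without replicate 1, and limma-voom gave 1 and 0, then 0 and 0. The common biological coefficient of variation was 33.3% with all livers, 30.1% without dKO replicate 1, and 8.92% in the 5 livers of both genotypes without that replicate. In these 5 livers edgeR called 324 of 16220 genes higher in dKO (2.0%) and 363 lower (2.24%). Those calls use 2 dKO livers, and they depended on single livers: without WT replicate 1 there were 110 higher and 64 lower, without WT replicate 2 there were 72 and 31, without dKO replicate 2 there were 109 and 152, and without dKO replicate 3 there were 73 and 63. In the first model, leaving out Casp8-/- Tnfr1-/- replicate 3 gave 24 higher and 3 lower, and leaving out both livers that stood apart gave 547 higher and 539 lower among 16958 genes, which held 319 of the 324 and 348 of the 363.

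**Figure D1:**
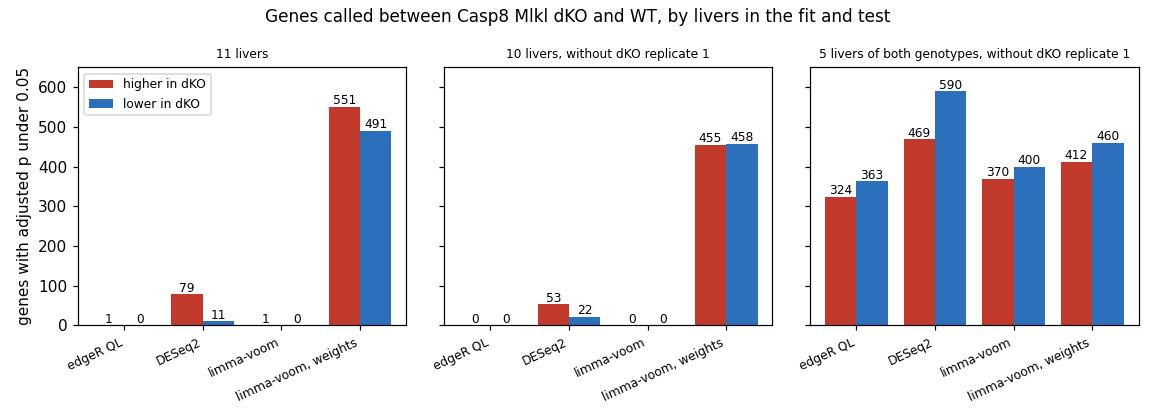
Number of genes at adjusted p under 0.05 (vertical axis, from 0), higher in dKO in red and lower in blue, by statistical test (horizontal axis; QL, quasi-likelihood) for 3 sets of livers. edgeR called 1 gene with 11 livers, 0 with 10 and 324 higher and 363 lower with 5, while limma-voom with a weight per library called 551 and 491 with all 11.

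All 687 genes called with 5 livers were also tested with all livers, a fit that holds the same 5 livers, so that agreement between the fits is largely set by that choice and is given as a description. Each of the 324 higher genes had a positive log2 fold change there too, and in 253 of them every dKO liver, replicate 1 included, lay above every WT liver. Of the 363 lower genes, 266 kept a negative log2 fold change and 200 had every dKO liver below every WT liver. Over all 17243 genes, every dKO liver lay above every WT liver in 10.8% and below in 11.1%, shares that are no measure for genes already chosen as higher or lower. A smaller set of 41 higher and 21 lower genes was called in the 5 livers and again with each of the 5 left out in turn, where a group of 1 dKO liver is assumed to vary like the WT livers.

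Interferon-stimulated genes (ISGs) were higher in dKO livers. They are switched on by type I, II and III interferons, and encode sensors of viral RNA, enzymes that degrade or edit it, GTPases that attack vacuoles of pathogens and the ubiquitin-like ISG15 system. Of 86 ISGs listed, 84 were tested, and their median log2 fold change was 1.04 with all livers and 0.68 without dKO replicate 1, where the medians over all genes were 0.028 and -0.0021. Of the 84, 82 had a positive fold change with all livers. In 66 every dKO liver was above every WT liver, beside 10.8% of all genes tested. By edgeR 1 of the 84 was called with all livers and 0 without dKO replicate 1, with 63 and 49 higher at an unadjusted p under 0.05. With 5 livers 36 of 81 rose, 1 fell and 44 did not pass, where 2.0% of all genes rose and 2.24% fell. That count was 23 without WT replicate 1, 22 without WT replicate 2, 33 without WT replicate 3, 22 without dKO replicate 2 and 18 without dKO replicate 3. Relative to the WT mean, the median of the list was 1.505 log2 units in dKO replicate 1, 0.69 in replicate 2 and 0.73 in replicate 3, so replicate 1 was the highest, and the WT livers lay between -0.072 and 0.070.

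**Figure D2:**
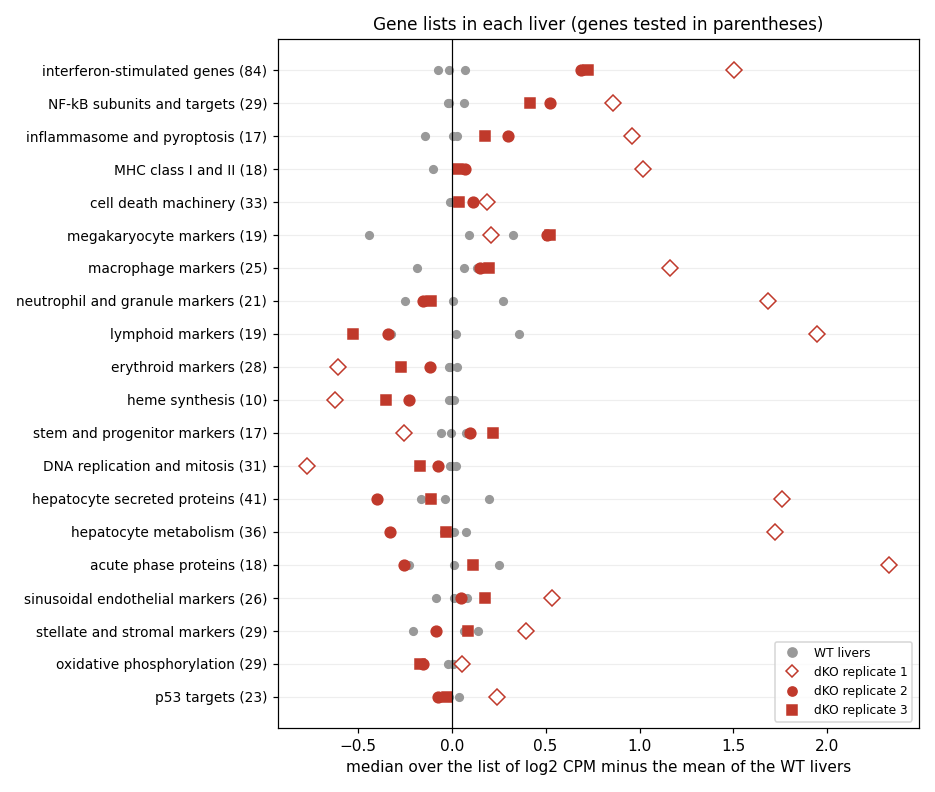
Median over each gene list of log2 CPM minus the mean of the 3 WT livers (horizontal axis), for each WT liver (grey) and each dKO liver (red; open diamond, replicate 1); the number of genes tested is in parentheses. The ISG list was above WT in all 3 dKO livers (0.69 to 1.505), whereas the hepatocyte, neutrophil and lymphoid lists were high only in replicate 1 of the 3.

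Rnf213, a giant ubiquitin ligase with antimicrobial activity (chr11:119393100-119487418, plus strand), was the gene called with all livers. Rnf213 measured 62.5, 70.3 and 67.1 CPM in the WT livers and 167, 164 and 159.7 CPM in the dKO livers. The dKO livers lay close together and far above WT, at a mean of 164 ± 3.84 against 66.6 ± 3.95 CPM (SD, n = 3 each). In log2 fold change Rnf213 was at 1.30 (standard error 0.14; edgeR adjusted p = 0.0464), 1.28 without replicate 1 (adjusted p = 0.0828, not called) and 1.28 with 5 livers (2.66e-05).

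Irf7, the factor that amplifies the interferon response, measured 7.14, 7.71 and 7.61 CPM in WT livers and 46.4, 19.6 and 22.1 in dKO livers. Parp14, an interferon-induced ADP-ribosyltransferase, measured 15.1, 16.5 and 13.8 CPM in WT and 52.0, 33.5 and 34.1 in dKO livers. Slfn5, a Schlafen family protein, measured 6.18, 6.12 and 6.35 CPM in WT and 29.7, 13.9 and 15.6 in dKO livers. In these 3 genes the groups did not overlap, and replicate 1 was the highest liver. All 3 rose with 5 livers, with log2 fold changes of 1.48, 1.16 and 1.25 (edgeR adjusted p = 2.78e-04, 4.53e-04 and 9.46e-04), and were called again with each liver left out. With all livers the values of Irf7, Parp14 and Slfn5 were 1.97, 1.40 and 1.67, none called (edgeR adjusted p = 0.112, 0.0677 and 0.168).

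Eif2ak2, the kinase PKR that stops translation on binding double-stranded RNA, measured 27.8, 27.7 and 28.9 CPM in WT and 42.7, 49.7 and 47.2 in dKO livers. Adar, which edits such RNA, measured 64.7, 59.7 and 63.2 CPM in WT and 93.2, 101 and 98.1 in dKO livers. For both genes replicate 1 was the lowest of the dKO livers, unlike for most ISGs, and still above every WT liver. With 5 livers they rose by 0.79 and 0.67 on the log2 scale (edgeR adjusted p = 8.24e-04 and 9.46e-04). Irf9, a factor that carries the interferon signal, rose in the same fit by 0.64 (edgeR adjusted p = 0.00252).

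Isg15, the ubiquitin-like modifier, measured 3.11, 4.99 and 3.07 CPM in WT and 38.2, 9.09 and 15.1 in dKO livers. Ifit1, which binds viral RNA that lacks a host cap, measured 0.883, 1.38 and 1.30 CPM in WT and 8.22, 3.51 and 4.51 in dKO livers. Oas3, an enzyme that makes the messenger activating RNase L, measured 0.729, 1.72 and 1.38 CPM in WT and 18.3, 4.09 and 3.32 in dKO livers. The groups were separate for each, but the dKO livers differed among themselves, with replicate 1 more than 2 times the next for Isg15 and Oas3. With 5 livers the 3 genes rose, with log2 fold changes of 1.70, 1.75 and 1.55 (edgeR adjusted p = 0.00922, 0.00994 and 0.0258), and with all livers none was called (adjusted p = 0.385, 0.216 and 0.68). The Oas3 call held in only 1 of the 5 fits with a liver left out.

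Zbp1, the sensor of Z-form nucleic acid that can start necroptosis, measured 0.806, 0.670 and 0.394 CPM in WT and 2.07, 0.871 and 1.34 in dKO livers, a log2 fold change of 1.17 with all livers and 0.81 with 5 (edgeR adjusted p = 0.865 and 0.291). Slfn1 was at 0.828 to 1.04 CPM in WT, 0.958 and 0.802 in dKO replicates 2 and 3 and 5.79 in replicate 1, and its log2 fold change went from 1.44 to -0.050 when replicate 1 was left out. Iigp1, an immunity-related GTPase, was at 92.7 CPM in replicate 1, 3.72 and 6.0 in replicates 2 and 3 and 1.73 to 2.35 in WT. Ube2l6, the conjugating enzyme for ISG15, was the member that fell with 5 livers, by 0.37 on the log2 scale (edgeR adjusted p = 0.0215), at 471 to 504 CPM in WT and 435, 394 and 356 in dKO livers. OAS, Schlafen, immunity-related GTPase and IFIT genes have close paralogs, so uniquely mapped reads may miss part of them.

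The interferon genes listed were at or near 0 counts in both genotypes. Ifna2, Ifna4 and Ifnl3 had 0 counts in all 6 livers, which allows up to 3 counts per liver. Ifnb1 had 1 count in dKO replicate 3 and 0 elsewhere, and Ifng had 2 counts in WT replicate 2, 2 in dKO replicate 1 and 1 in dKO replicate 2. None of these was high enough to be tested, and a difference in them was not detectable at this depth. Only uniquely mapped reads were counted, which may miss genes with close paralogs. Gapdh, a gene of glycolysis, had 0 to 4 counts in these livers. A count of 0 is thus no measure of absence, and the part of unique mapping was not tested. Of the 9 interferon receptor and related genes tested, 0 passed edgeR's test with 5 livers, and their median log2 fold change was 0.13. Class I and II MHC genes, which interferon-gamma induces, had a median of 0.41 with all livers and 0.03 without replicate 1, where 17 of the 18 were highest in replicate 1. Macrophage and neutrophil lists, whose cells express many ISGs, summed to 3044 and 4057 CPM in replicate 1, 1339.5 and 1485 in replicate 2, and 1440.2 and 1640.3 in replicate 3, against 1106 to 1402 and 1279 to 1861 in WT. The part of these cells in the ISG levels was not tested.

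The promoters of 5 of the genes that rose with 5 livers are shown because ISGs and NF-kB targets are known for binding sites close to the start of transcription, and these letters let the reader see them. Each line holds the 250 bases before the RefSeq start, 5′ to 3′ on the strand of the gene, in build GRCm38.p6. Capitals mark matches, on either strand, to GAAANNGAA, the core of the interferon-stimulated response element, or to the kappaB motif. Cxcl10 (chr5:92348890-92349139, minus strand) has 1 match to the former and 2 overlapping ones to the latter. Only 1 form of the kappaB motif was searched. A lower-case stretch such as gggaaattcc in Cxcl10 is not counted, whether or not NF-kB binds it. Isg15 (chr4:156200819-156201068, minus strand) and Ifit1 (chr19:34640639-34640888, plus strand) have 3 of the former each, partly overlapping, Slfn5 (chr11:82951852-82952101, plus strand) has 2, and Madcam1 (chr10:79664309-79664558, plus strand) has 2 of the kappaB motif.
Cxcl10: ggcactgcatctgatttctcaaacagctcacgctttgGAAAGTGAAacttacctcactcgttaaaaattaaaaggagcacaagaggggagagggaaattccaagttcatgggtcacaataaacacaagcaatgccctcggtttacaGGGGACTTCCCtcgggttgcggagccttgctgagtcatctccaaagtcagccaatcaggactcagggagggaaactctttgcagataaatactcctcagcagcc
Isg15: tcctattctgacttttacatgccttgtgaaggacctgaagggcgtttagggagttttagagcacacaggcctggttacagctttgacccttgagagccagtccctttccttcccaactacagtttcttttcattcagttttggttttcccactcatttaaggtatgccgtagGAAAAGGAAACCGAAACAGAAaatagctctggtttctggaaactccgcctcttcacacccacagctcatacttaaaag
Ifit1: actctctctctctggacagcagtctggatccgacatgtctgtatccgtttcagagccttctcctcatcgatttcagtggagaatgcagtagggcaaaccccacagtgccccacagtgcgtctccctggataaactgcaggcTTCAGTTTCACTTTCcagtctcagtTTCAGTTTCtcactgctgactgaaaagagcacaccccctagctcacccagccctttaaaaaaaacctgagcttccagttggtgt
Slfn5: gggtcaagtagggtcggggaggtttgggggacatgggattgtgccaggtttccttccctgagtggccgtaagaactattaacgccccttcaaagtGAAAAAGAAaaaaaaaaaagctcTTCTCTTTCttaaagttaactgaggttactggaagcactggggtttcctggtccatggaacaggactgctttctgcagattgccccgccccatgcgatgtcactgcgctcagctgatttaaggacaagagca
Madcam1: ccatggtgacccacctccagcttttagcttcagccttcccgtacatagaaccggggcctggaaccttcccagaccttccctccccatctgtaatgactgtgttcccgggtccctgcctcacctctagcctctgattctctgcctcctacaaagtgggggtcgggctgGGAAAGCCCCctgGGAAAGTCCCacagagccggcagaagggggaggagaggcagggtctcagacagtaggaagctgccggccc
GAAANNGAA was found in 7.13% of all 32851 promoters of that length, in 46.8% of the 79 promoters of 67 ISGs in the RefSeq table, in 12.3% of 316 promoters of genes that rose with 5 livers and in 5.75% of 348 promoters of genes that fell. The kappaB motif was found in 5.0% of all promoters, in 45.2% of 31 promoters of 26 NF-kB genes, in 6.96% of promoters of genes that rose and in 4.02% of those that fell. The promoters of genes that rose include those of ISGs. Of these 316 promoters 39 held the interferon-stimulated core, and 17 of the 39 were among 33 promoters of ISGs that rose. A match is a description of letters and not a measured binding site.

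Among subunits and targets of NF-kB, some members were higher in dKO livers. NF-kB dimers drive inflammatory genes and their own inhibitors, and caspase-8, RIPK1 and TNF receptors act on the same pathway. Of 31 genes listed 29 were tested, with a median log2 fold change of 0.60 with all livers and 0.40 without dKO replicate 1. In 16 every dKO liver was above every WT liver, beside 10.8% of all genes tested. By edgeR 0 of the 29 were called with all livers and 0 without replicate 1, with 12 and 7 higher at an unadjusted p under 0.05. With 5 livers 9 of 24 rose, 0 fell and 15 did not pass by edgeR, beside 2.0% of all genes that rose. The count was 4 without WT replicate 1, 3 without WT replicate 2, 4 without dKO replicate 2 and 2 without dKO replicate 3.

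Among the subunits, Relb of the alternative pathway measured 2.46, 2.97 and 1.93 CPM in WT and 8.10, 6.10 and 6.57 in dKO livers. Its log2 fold change was 1.49 with all livers (standard error 0.44, edgeR adjusted p = 0.845) and 1.37 with 5 (0.21, adjusted p = 0.00994), and the groups did not overlap. Nfkb2 and Nfkb1, the precursors of p52 and p50, rose by 0.43 and 0.28 with 5 livers (adjusted p = 0.0324 and 0.0394). Among the inhibitors, Nfkbie measured 2.88, 2.26 and 2.52 CPM in WT and 6.32, 5.55 and 6.15 in dKO livers, and rose by 1.19 with 5 livers (adjusted p = 0.0116). Tnfaip3, the deubiquitinase A20, was at 6.03 to 7.37 CPM in WT and 23.9, 11.1 and 9.62 in dKO livers, and Birc3, a ubiquitin ligase of the TNF receptor complex, at 12.5 to 13.4 and 33.3, 20.1 and 18.3 CPM.

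Among the effectors, Cxcl10, a chemokine that interferon and NF-kB both induce and a member of both lists, measured 5.37, 5.24 and 4.81 CPM in WT and 15.6, 12.3 and 13.9 in dKO livers. The 3 dKO livers were close to each other and all above WT. Its log2 fold change was 1.44 with all livers (edgeR adjusted p = 0.0521), 1.35 without replicate 1 (0.135) and 1.35 with 5 livers (9.46e-04). Icam1, an adhesion molecule for leukocytes, measured 20.3, 20.4 and 21.4 CPM in WT and 45.4, 34.6 and 31.5 in dKO livers and rose by 0.68 with 5 livers (adjusted p = 0.00476). Il1b was low, at 0.126 to 0.197 CPM in WT and 2.75, 0.552 and 0.878 in dKO livers. With Il1a and Mefv, the gene for pyrin, it made up the 3 of 17 inflammasome genes that rose with 5 livers, beside 2.0% of all genes. By edgeR 0 of the 17 were called with all livers and 0 without replicate 1. The 5-liver count was 0, 1 and 1 without WT replicates 1, 2 and 3. The calls of Il1b, Mefv and Tnfaip3 were lost with any of the 5 livers left out.

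Irak3, an inhibitor of signalling by Toll-like and IL-1 receptors that is found mainly in monocytes and macrophages, was also among the genes with the smallest p. It measured 3.99, 3.69 and 3.98 CPM in WT and 13.9, 10.9 and 9.66 in dKO livers, with no overlap. The log2 fold change was 1.57 with all livers (standard error 0.18, edgeR adjusted p = 0.0521), 1.41 without replicate 1 (adjusted p = 0.0828) and 1.41 with 5 livers (0.0013). Madcam1, the vascular ligand of integrin alpha4 beta7 (chr10:79664559-79668537, plus strand), was at 4, 9 and 2 counts in WT and 113, 91 and 123 counts in dKO livers. That is a mean of 0.203 ± 0.155 CPM in WT and 3.97 ± 1.15 CPM in dKO livers (SD, n = 3 each). On the log2 scale Madcam1 differed by 4.27 with all livers and 4.16 with 5 (edgeR adjusted p = 0.0606 and 0.00203). Asb2, a subunit of a ubiquitin ligase that acts on filamins, measured 5.76, 6.79 and 4.49 CPM in WT and 21.5, 18.6 and 16.2 in dKO livers. Its log2 fold change was 1.72 with all livers and 1.62 with 5 (edgeR adjusted p = 0.0677 and 9.46e-04). For these 3 genes replicate 1 lay near the other dKO livers.

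Ccl24, a chemokine for eosinophils made by macrophages, was the chemokine that fell. It measured 6.49, 5.32 and 6.62 CPM in WT and 1.54, 1.45 and 1.26 in dKO livers, with a log2 fold change of -2.11 with all livers (edgeR adjusted p = 0.0677), -2.17 without replicate 1 (0.262) and -2.17 with 5 livers (9.46e-04). In the Casp8-/- Tnfr1-/- livers the same gene was at 23.02, 24.7 and 44.8 CPM. Snrpe, a core protein of the spliceosome, was at 34.4 to 35.8 CPM in WT and 19.9, 23.6 and 24.0 in dKO livers, a fall of 0.57 on the log2 scale with 5 livers (adjusted p = 0.00732), and Gm43274, an uncharacterised locus, was under 0.7 CPM in every liver. Cxcl16 rose by 1.09 with 5 livers (adjusted p = 0.0167), so 2 of 18 chemokines rose and 1 fell, beside 2.0% and 2.24% of all genes. By edgeR 0 chemokines were called with all livers and 0 without replicate 1. In the order of rise and fall the counts were 2 and 1 without WT replicate 1, 1 and 1 without WT replicate 2, and 2 and 4 without WT replicate 3.

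**Figure D3:**
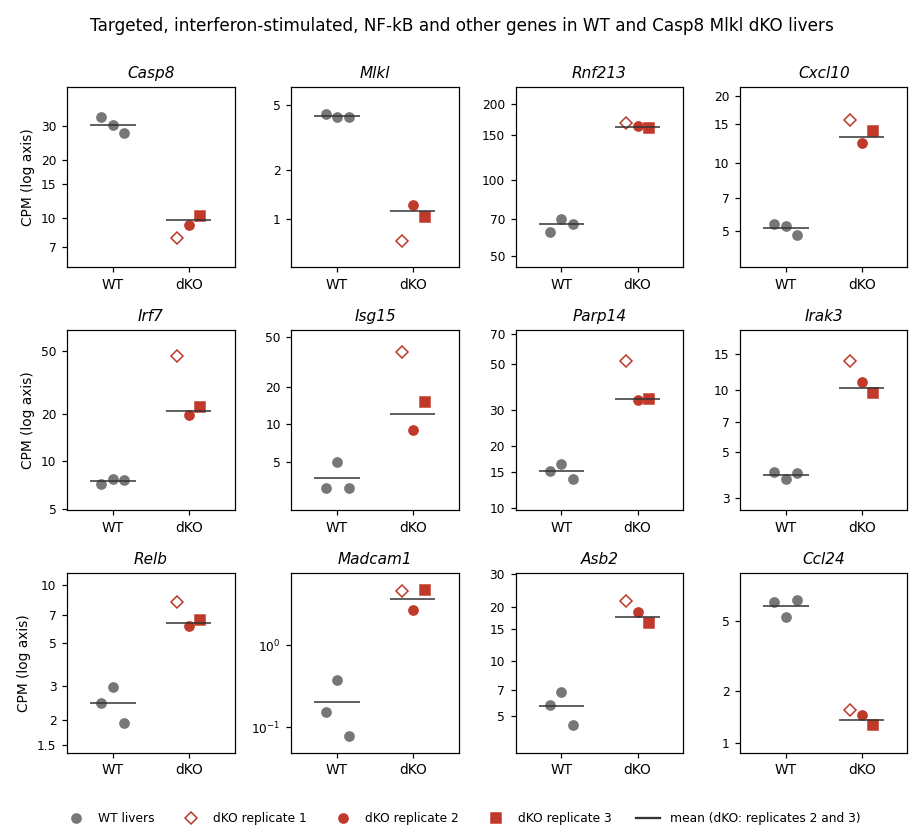
CPM on a log axis for 12 genes in each WT liver (grey) and dKO liver (red; open diamond, replicate 1), with bars at the mean of the 3 WT livers and of dKO replicates 2 and 3. In every panel the 3 dKO livers lie on one side of the WT livers, as for Rnf213 at 159.7 to 167 against 62.5 to 70.3 CPM.

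Macrophage markers moved in both directions. Fetal liver macrophages clear the nuclei that erythroblasts expel and are precursors of Kupffer cells, whose mature identity includes Clec4f, Vsig4, Timd4 and Marco. By edgeR 0 of 25 markers were called with all livers and 0 without dKO replicate 1, and at an unadjusted p under 0.05 there were 10 higher and 2 lower, then 3 and 3. With 5 livers 6 of 24 rose, 4 fell and 14 did not pass, beside 2.0% and 2.24% of all genes. In the same order of rise and fall the counts were 5 and 2 without WT replicate 1, 2 and 2 without WT replicate 2, 3 and 1 without dKO replicate 2, and 2 and 3 without dKO replicate 3. Their median log2 fold change was 0.58 with all livers and 0.12 without dKO replicate 1. In bulk tissue, fewer cells of a type and less RNA per cell cannot be told apart.

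Adgre1, the gene for F4/80, measured 57.3, 54.8 and 46.3 CPM in WT and 169.95, 105 and 100.2 in dKO livers. Timd4, a receptor for phosphatidylserine on dying cells, measured 16.0, 17.6 and 15.2 CPM in WT and 62.7, 30.7 and 32.6 in dKO livers. Both were above WT in all 3 dKO livers and highest in replicate 1. With 5 livers they rose by 0.96 and 0.97 on the log2 scale (edgeR adjusted p = 7.79e-04 and 9.82e-04) and were called with each liver left out, but with all livers they were not called (adjusted p = 0.845 and 0.875). Mertk, another receptor for dying cells, the scavenger receptor Marco, the endotoxin co-receptor Cd14 and the actin-binding Aif1 rose by 0.43, 0.75, 1.25 and 0.58 in the same fit (adjusted p = 0.0167, 0.019, 0.0169 and 0.03). Their calls held in 1 to 3 of the 5 fits with a liver left out.

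Clec4f, a lectin known as a marker of adult Kupffer cells, fell. It measured 13.7, 12.1 and 10.4 CPM in WT and 5.47, 0.203 and 0.726 in dKO livers. In counts, WT livers had 357, 290 and 265, dKO replicates 2 and 3 had 7 and 19, and dKO replicate 1 had 135. All dKO livers were below WT, and replicate 1 was between the groups, at 0.452 of the WT mean where replicates 2 and 3 together were at 0.0384. The log2 fold change was -2.52 with all livers (standard error 0.94, edgeR adjusted p = 0.875), -4.73 without replicate 1 (0.262) and -4.78 with 5 livers (standard error 0.33, 1.70e-04). In the Casp8-/- Tnfr1-/- livers Clec4f was at 1.16, 0.550 and 0.114 CPM, and in the Tnfr1-/- livers at 13.9 and 11.4.

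Vsig4, a complement receptor of Kupffer cells, went the same way in dKO replicates 2 and 3 but not in replicate 1. It had 38, 22 and 38 counts in WT livers, 1 and 4 in dKO replicates 2 and 3, and 110 in replicate 1. With 5 livers it fell by 3.88 on the log2 scale (edgeR adjusted p = 0.0115), while with all livers the value was 0.24 (0.987). Cd163, the scavenger of haptoglobin and hemoglobin, had 25, 18 and 13 counts in WT, 5 and 0 in dKO replicates 2 and 3 and 19 in replicate 1. Trem2, a lipid receptor, was below WT in every dKO liver, at 1.46, 1.71 and 1.87 CPM against 3.04 to 4.61, and fell by 1.11 with 5 livers (adjusted p = 0.0334). Without WT replicate 2 or dKO replicate 2, or most other single livers, the calls of Trem2 and Cd163 were lost (called in 1 of 5 fits each).

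**Figure D4:**
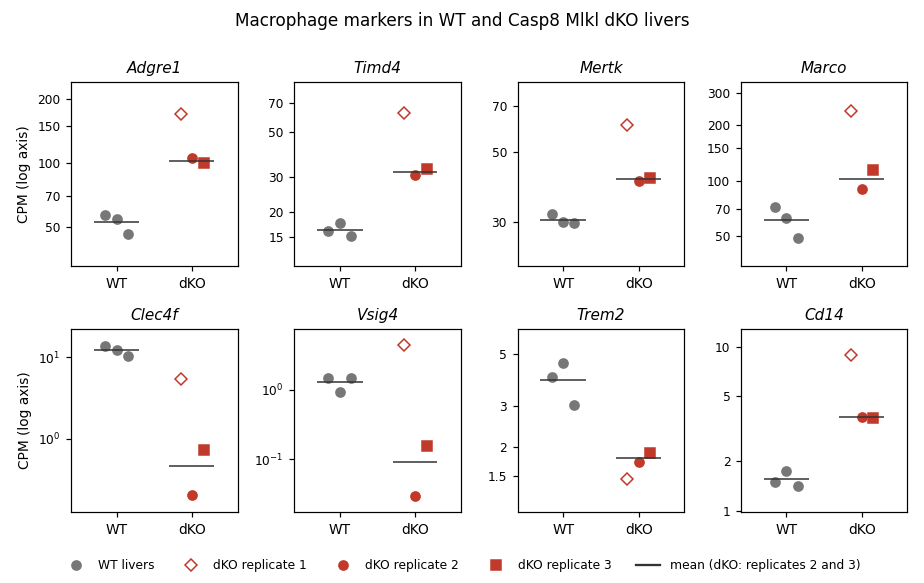
CPM on a log axis of 8 macrophage markers in each WT liver (grey) and dKO liver (red; open diamond, replicate 1), with bars at the mean of WT and of dKO replicates 2 and 3. Adgre1, Timd4, Mertk, Marco and Cd14 lie above WT in all 3 dKO livers, Trem2 and Clec4f below, and Vsig4 is below WT in replicates 2 and 3 and above it in replicate 1.

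Erythroid genes were lower in dKO livers, by small amounts. Of 28 erythroid markers tested, 27 had a negative log2 fold change with all livers, with a median of -0.30. Without dKO replicate 1 the median was -0.17, with 25 negative and 3 positive. In 18 every dKO liver was below every WT liver, beside 11.1% of all genes tested. By edgeR 0 were called with all livers and 0 without replicate 1, with 1 lower at an unadjusted p under 0.05 in each. With 5 livers 6 fell and 22 did not pass, beside 2.24% of all genes that fell. The count was 1 without WT replicate 1, 0 without WT replicate 2, 5 (and 1 higher) without WT replicate 3, 4 without dKO replicate 2 and 0 without dKO replicate 3. Gata1, the master regulator of this lineage, measured 296, 292 and 285 CPM in WT and 146, 237 and 228 in dKO livers, and fell by 0.32 on the log2 scale with 5 livers (edgeR adjusted p = 0.0236). The adult beta globins Hbb-bs and Hbb-bt, nearly identical genes whose reads are hard to assign, fell by 0.53 and 0.50 (adjusted p = 0.0307 and 0.0262), and the embryonic Hbb-bh1 by 0.70 (0.0137). Other embryonic globins did not share this fall. Hbb-y was above every WT liver in dKO replicates 2 and 3 and below them in replicate 1. The direction of Hba-x depended on the livers used.

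The pathway that makes heme showed the same direction in every member. All 10 genes tested were negative with all livers and without replicate 1, with medians of -0.38 and -0.29. In 8 every dKO liver was below every WT liver, beside 11.1% of all genes tested. By edgeR 0 were called with all livers and 0 without replicate 1, with 4 and 3 lower at an unadjusted p under 0.05. With 5 livers 5 of the 10 fell, beside 2.24% of all genes, and 3, 3, 0, 0 and 0 did so without dKO replicate 2, WT replicate 3, WT replicate 1, WT replicate 2 and dKO replicate 3. Alas2, the erythroid enzyme for the initial step, measured 2196, 2074 and 2127 CPM in WT and 1894, 1742 and 1569 in dKO livers. Slc25a38, the mitochondrial carrier that supplies glycine to that step, measured 169.7, 173 and 169 CPM in WT and 100.4, 140.2 and 134 in dKO livers. Alad and Urod, which act later, were at 667 to 730.1 and 677 to 714 CPM in WT and 422 to 539 and 446 to 569 in dKO livers. The falls with 5 livers were 0.36, 0.31, 0.36 and 0.34 on the log2 scale for Alas2, Slc25a38, Alad and Urod (edgeR adjusted p = 0.0323, 0.0249, 0.0228 and 0.0287). CPM are shares of a library, and in dKO replicate 1 hepatocyte secreted protein genes took 298035 CPM in place of 69800.5 to 97810 in the other 5 livers; the part of this in its lower erythroid values was not tested.

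Megakaryocyte markers had a median log2 fold change of 0.39 with all livers and 0.42 without replicate 1. In 2 of the 19 tested every dKO liver was above every WT liver, beside 10.8% of all genes. With 5 livers 2 of the 19 rose, 0 fell and 17 did not pass, beside 2.0% of all genes that rose. Gp1ba and Tubb1, a platelet adhesion receptor subunit and a platelet tubulin, rose with 5 livers by 0.77 and 0.83 (edgeR adjusted p = 0.0262 and 0.0495), and in this list the WT livers spread widely, with medians of -0.44 to 0.32 around their own mean. Without WT replicate 3 the count was 10 of the list, where 337 genes rose over all genes. Without WT replicate 1 or WT replicate 2 it was 0. Of 18 lymphoid markers 3 fell with 5 livers and 15 did not pass, beside 2.24% of all genes that fell, and the 3 are genes of the B lineage. With all livers and without replicate 1 edgeR called 0 megakaryocyte and 0 lymphoid markers. Igll1, part of the surrogate light chain of pre-B cells, measured 5.53, 5.11 and 3.31 CPM in WT, 1.45 and 1.64 in dKO replicates 2 and 3 and 18.3 in replicate 1. Igll1, Vpreb3 and Cd79a fell with 5 livers by 1.59, 1.67 and 1.25 on the log2 scale (edgeR adjusted p = 0.0146, 0.0162 and 0.0431), and were positive with all livers. These calls of lymphoid genes were 0 without WT replicate 1, WT replicate 2 or either dKO liver, and 4 without WT replicate 3.

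Hepatocyte genes separated dKO replicate 1 from all other livers. This liver had been singled out beforehand for albumin and other liver genes, so its distance in them is a description and not a separate result. The list of 41 secreted proteins had a median log2 fold change of 0.80 with all livers and -0.26 without replicate 1, so the direction rested on that liver, which was the highest of the 6 in 40 of the 41. Albumin (Alb) measured 124552 CPM in replicate 1, 23832 and 27620 in replicates 2 and 3, and 35051, 30157 and 26953 in WT. Apoa1, the main protein of high-density lipoprotein, was at 7779 CPM in replicate 1, 1745 and 2070 in the other dKO livers and 2378 to 3026 in WT. Trf (transferrin) was 5.07 times the WT mean in replicate 1 and Afp, the fetal counterpart of albumin, 2.18 times. The genes farthest from the other dKO livers were Fbp1, an enzyme of gluconeogenesis, at 699 CPM against 3.43 and 9.55, then Rdh7, Azgp1, the water channel Aqp8 and the alcohol dehydrogenase Adh1, at 157, 275, 455 and 620.05 CPM. In the opposite direction were the embryonic globins Hbb-y, Hbb-bh1 and Hba-x, with Muc6 and Nanos1. Hbb-y was at 7.25 CPM in replicate 1, 119 and 150.1 in replicates 2 and 3 and 49.0 to 116 in WT.

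In the same liver 36 of the 36 hepatocyte metabolism genes, 17 of the 18 acute phase genes, 16 of the 21 neutrophil and granule genes and 18 of the 19 lymphoid genes were the highest of the 6 livers. All 31 DNA replication and mitosis genes were the lowest there. These shares stand beside 35.3% and 34.0% of all genes. The median of the replication and mitosis list was -0.77 log2 units relative to WT in replicate 1, -0.07 in replicate 2 and -0.17 in replicate 3. What set this liver apart was not tested.

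Without replicate 1, hepatocyte genes tended to the other side. With 5 livers 8 of 41 secreted protein genes and 5 of 35 metabolism genes fell and 0 rose by edgeR, beside 2.24% of all genes that fell. With all livers and without replicate 1 edgeR called 0 members of either list. At an unadjusted p under 0.05 there were 1 and 4 higher and 0 lower with all livers, and 0 and 1 higher and 6 and 4 lower without replicate 1. The counts were 5 and 4 without WT replicate 1, 3 and 2 without WT replicate 2, 11 and 8 without WT replicate 3, 4 and 3 without dKO replicate 2, and 7 and 4 without dKO replicate 3. Serpina1a, an inhibitor of neutrophil elastase with close paralogs, measured 193, 185 and 186 CPM in WT, 108 and 118 in dKO replicates 2 and 3 and 540.4 in replicate 1. Sult1a1, a sulfotransferase, measured 35.6, 30.7 and 22.98 CPM in WT, 10.9 and 12.9 in these dKO livers and 195 in replicate 1. Both were below WT in replicates 2 and 3 and far above it in replicate 1. They fell by 0.73 and 1.33 on the log2 scale with 5 livers (edgeR adjusted p = 7.79e-04 and 0.00416) and did so with each liver left out, as did Azgp1, Apoc1 and Gamt. Alb itself did not pass (-0.25, adjusted p = 0.289).

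**Figure D5:**
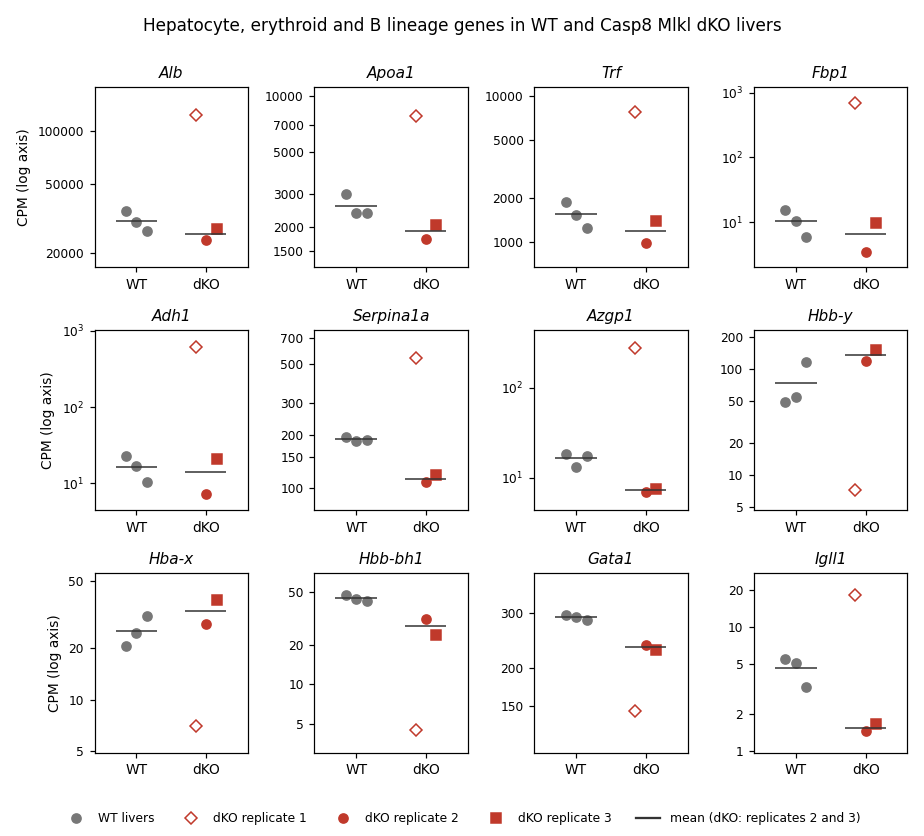
CPM on a log axis of 12 hepatocyte, globin, erythroid and B lineage genes in each WT liver (grey) and dKO liver (red; open diamond, replicate 1), with bars at the mean of WT and of dKO replicates 2 and 3. Replicate 1 lies outside the range of the other 5 livers in every panel, as for Alb at 124552 against 23832 to 35051 CPM. Several of these genes were picked for that distance.

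Cell death genes other than the targeted ones had few calls. Of 33 tested, Birc3 rose and Casp8 and Mlkl fell with 5 livers, beside 2.0% and 2.24% of all genes. By edgeR 0 were called with all livers and 0 without replicate 1, and the median log2 fold changes were 0.07 and 0.09. At an unadjusted p under 0.05 with all livers 6 were higher and 2 lower, beside 4.11% and 1.52% of all genes. In 9 every dKO liver was above every WT liver and in 5 below, beside 10.8% and 11.1%. Ripk1, the kinase upstream of both apoptosis and necroptosis, measured 44.6, 46.4 and 43.0 CPM in WT and 52.7, 51.5 and 53.1 in dKO livers. The groups did not overlap, but the log2 fold change of 0.23 was not called with all livers or with 5 (edgeR adjusted p = 0.916 and 0.0883). Ripk3 was at 18.2 to 21.1 CPM in WT and 16.1 to 23.3 in dKO livers, and Ticam1, the gene for the adaptor TRIF, at 25.6 to 28.3 and 26.4 to 39.5. Tnfrsf1a, the gene for TNFR1, was at 47.1 to 53.4 CPM in WT and 52.5 and 45.4 in dKO replicates 2 and 3, and 77.1 in replicate 1.

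The remaining lists had at most 5 calls each with 5 livers, where 2.0% of all genes rose and 2.24% fell. With all livers and without dKO replicate 1 edgeR called 0 of their members. Subunits of oxidative phosphorylation had a median log2 fold change of -0.08 with all livers and -0.18 without dKO replicate 1. With 5 livers 5 of 29 fell, among them Ndufa4 (by 0.42 on the log2 scale, edgeR adjusted p = 0.0146). That count was 0 without WT replicate 1, 0 without WT replicate 2 and 4 without WT replicate 3. Of 31 DNA replication and mitosis genes 3 fell, and 0, 0 and 2 did so with the same WT livers left out. Among p53 targets Pmaip1, the gene for NOXA, rose by 0.85 and Btg2 fell by 0.50 (adjusted p = 0.0323 and 0.00718), and among immediate early genes Myc rose by 0.58 and Egr1 fell by 1.03 (0.00322 and 0.0306). Btg2 and Myc stayed called with each WT liver left out. The call of Pmaip1 was lost without WT replicate 1 or WT replicate 2, and that of Egr1 without WT replicate 1. Lists of sinusoidal endothelium, stroma, imprinted fetal growth genes, cholesterol synthesis, stem and progenitor cells and acute phase proteins had 1 call each, glycolysis and hypoxia 2, striated muscle 1 (Ttn), and those of neutrophils, mast cells, cholangiocytes, pancreas, gut and skin 0.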

How the data were processed

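RNA of single fetal livers was sequenced as single-end reads of 50 bases. Reads were aligned by the authors with GSNAP to GRCm38, and uniquely mapped reads were kept. The counting tool, annotation release and use of strand are not given in the sources used here, and the labels and the methods of the study name different TruSeq kits and sequencers. The authors deposited per liver a table with raw counts of exonic reads per gene, a width (a gene length in bases) and RPKM values; the deposited counts were used, and the deposited width and RPKM were not tested. Of 52636 genes, 52489 were named by GENCODE release M 21.

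Genes were kept by filterByExpr (minimum count 10), normalised by TMM and tested by edgeR 4.0.16 in R 4.3.3 (glmQLFit, glmQLFTest) with genotype as the factor and 4 genotypes in the model, with Benjamini-Hochberg adjustment over all genes tested and a threshold of 0.05. The fit was repeated without Casp8-/- Mlkl-/- replicate 1, and with 5 livers (WT and dKO replicates 2 and 3); reporting the 5-liver fit as a result of its own, and naming members of lists by it, were chosen after seeing the data. Log2 CPM used a prior count of 2. Alternatives were DESeq2 1.42.0, limma 3.58.1 (voom, also with library weights), other size factors and filters, the replicate number as a block and each liver left out. The tests were tried on simulated data with 200 changed genes. Totals of 23129212 to 31870200 counts per liver limit low genes: 3 counts correspond to 0.108 CPM on average in dKO livers, a limit for counting error alone, as these reads carry no molecular identifiers. The lowest chi-square statistic per degree of freedom between any 2 livers was 7.20, so no 2 livers were the same library.

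Genes were named by this rule: Casp8 and Mlkl; Zbp1, Ifit1, Isg15, Oas3, Slfn1, Ripk1, Ripk3, Ticam1 and Tnfrsf1a; genes called with and without replicate 1 (none passed both); the 5 smallest p per direction in either fit; up to 4 called members per list; and, for the distance of replicate 1, 5 hepatocyte genes and the 5 farthest genes each way with a mean log2 CPM over 3. All other genes in the text were picked with their values in view. The members and the gene lists were chosen with earlier results of these data known. The result for 1 further gene is not reported here.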

Additional observations from a re-analysis of the deposited data

How the results depend on the processing

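With all livers, the numbers of genes higher and lower were 3 and 0 with DESeq2's size factors, 0 and 0 with globin genes or hepatocyte genes left out of library sizes, 79 and 11 by DESeq2's Wald test, 551 and 491 by limma-voom with library weights (0.114 for dKO replicate 1 and 0.0383 for Casp8-/- Tnfr1-/- replicate 3, 1.15 to 2.64 for the others), 11 and 3 with no filter, 3 and 0 with a mean of at least 10 counts, and 9 and 3 at an adjusted p under 0.1. Leaving out each liver gave 0 to 24 higher and 0 to 3 lower. Without replicate 1 they were 53 and 22 by DESeq2, 455 and 458 with library weights, 3 and 0 at 0.1, 324 and 363 with both genotypes alone, and 0 to 547 and 0 to 539 with each liver left out. With 5 livers they were 469 and 590 by DESeq2, 813 and 797 with no filter, 717 and 744 at 0.1, and 72 to 337 and 31 to 379 with each liver left out.

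With the replicate block the counts were 0 and 0 with all livers, 0 and 0 without replicate 1, and 64 and 32 with 5 livers. Livers with the same number correlated at 0.165, -0.055 and 0.082 in their deviations from the group means. Deviations within a group add to 0 and dKO replicate 1 stands apart, so these values cannot tell whether such livers shared a litter or a preparation. Pairing was not tested.

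The median of ISGs was 0.68 to 1.17 with each liver left out and 0.72 to 1.05 otherwise. That of hepatocyte secreted proteins was -0.26 to 1.13 and -0.15 to 0.82.

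Of 38 genes named by the rule, 21 kept their direction in every alternative that gave a value (21 alternatives, 19 for Gm43274). The others changed it with replicate 1 left out or down-weighted, or with another single liver, and the ranges of log2 fold change with each liver left out were -0.050 to 1.86 for Slfn1, -0.022 to 0.23 for Ripk3, -0.060 to 0.34 for Tnfrsf1a, -1.58 to 1.09 for Igll1, -0.25 to 1.30 for Alb, -0.44 to 0.92 for Apoa1, -0.39 to 1.57 for Trf, -0.49 to 0.80 for Ttr, -0.093 to 0.67 for Afp, -0.70 to 5.06 for Fbp1, -1.13 to 3.43 for Rdh7, -1.17 to 3.09 for Azgp1, -0.87 to 3.62 for Aqp8, -0.22 to 4.27 for Adh1, -0.21 to 0.88 for Hbb-y, -0.50 to 0.29 for Muc6 and -0.54 to 0.40 for Hba-x. With library weights they were -0.044 for Slfn1, -0.10 for Tnfrsf1a, -1.50 for Igll1, -0.17 for Alb, -0.34 for Apoa1, -0.25 for Trf, -0.41 for Ttr, -0.015 for Afp, -0.48 for Fbp1, -0.90 for Rdh7, -0.98 for Azgp1, -0.69 for Aqp8, -0.048 for Adh1, 0.34 for Muc6 and 0.46 for Hba-x. By limma-voom without weights Igll1 was -0.45 and Hbb-y -0.39, and with the replicate block Hbb-y was -0.047. The cause was not tested. Depth limits genes at few counts, such as Madcam1 in WT livers (4, 9 and 2 counts) and Vsig4 in dKO replicates 2 and 3 (1 and 4 counts).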

Other observations

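A pair of genes, picked with their values in view, was at or near 0 counts in either the dKO or the WT livers. Capn11, a calpain known mainly from testis (chr17:45630204-45659325), had 73, 57 and 117 counts in WT livers and 0 in all 3 dKO livers, at least 30.3-fold lower against a floor of 3 counts per liver. It also had 0 counts in the 3 Casp8-/- Tnfr1-/- livers, and 0 and 46 in the Tnfr1-/- livers. Tspan10, a tetraspanin (chr11:120442644-120446950), had 1, 0 and 0 counts in WT, 50, 27 and 27 in dKO livers, 0, 1 and 0 in Casp8-/- Tnfr1-/- and 2 and 0 in Tnfr1-/- livers. Both were called with 5 livers and with each of these left out (edgeR's quasi-likelihood test, adjusted p = 9.46e-04 and 0.00713).

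Other genes outside the lists also held with each of the 5 livers left out. Serpina3g, a serine protease inhibitor induced in activated leukocytes, was at 1.04 to 1.66 CPM in WT and 12.9, 7.61 and 9.78 in dKO livers (log2 fold change 2.68 with 5 livers). Helz2, an interferon-induced nuclear co-activator, was at 79.0 to 80.3 CPM in WT and 202, 123 and 132 in dKO livers. Idh1, cytosolic isocitrate dehydrogenase, was at 158 to 184 CPM in WT, 84.3 and 72.8 in dKO replicates 2 and 3 and 157 in replicate 1. Ces1d, a carboxylesterase of hepatocytes, was at 37.1 to 56.7 CPM in WT, 18.1 and 17.95 in replicates 2 and 3 and 107 in replicate 1. Idh1 lies on chromosome 1 within 10 megabases of Casp8; of the 114 genes tested in that stretch, 5 were higher and 2 lower with 5 livers (6.14%), of 170 within 10 megabases of Mlkl 2 were higher and 3 lower (2.94%), and over all genes 4.24% were called.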
